A study of Mus musculus with 2 samples.

Results

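The microRNA genes described here are the 10 that lie at the proximal end of the imprinted Dlk1-Dio3 region on mouse chromosome 12, with Mir770 at one end (from 109563692) and Mir136 at the other (to 109595388, mm10). Membership was set by position and by symbol in GENCODE M21, and the rule uses no counts. The 5 genes antisense to the protein-coding gene Rtl1 are Mir431, Mir433, Mir127, Mir434 and Mir136, and the 5 that lie upstream of these on the plus strand, past the 3′ end of Rtl1, are Mir770, Mir673, Mir337, Mir540 and Mir665. By Ensembl identifier, 9 of the 10 have a row in the deposited tables, out of 1973 rows in all, and Mir136 has none under its own identifier. The antisense set therefore has 4 measured genes and the upstream set 5. The samples are whole hindbrains of newborn B6NCrl mice (age 0 days, no treatment named, sex not collected), each from a different pup. There are 2 libraries in 1 group, called pup 3 and pup 1 after the labels, and no condition was compared. The assay was microRNA-seq on total RNA with a stated size range below 30 nt, in which short RNAs receive adapters and are read by sequencing.

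In imprinted domains, genes are read from only the maternal or only the paternal chromosome. In the Dlk1-Dio3 region of the mouse, Dlk1, Rtl1 and Dio3 are read from the paternal chromosome. The long RNA Meg3, the transcript antisense to Rtl1, Rian and Mirg are read from the maternal chromosome and carry the region's microRNAs. Rtl1 derives from a retrotransposon and is known for its role in the mouse placenta. MicroRNAs that are cut from the antisense transcript are fully complementary to Rtl1 mRNA, and in the mouse miR-127 and miR-136 are known to direct its cleavage. Many microRNAs of the region are known from brain, where miR-431 has been described as a factor in axon growth of mouse sensory neurons.

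Mature sequences from RefSeq (GRCm38.p6) matched all 10 genes and gave 20 arms of 20 to 26 nt. The 10 arms of the antisense genes are shown first, because they are the products that can pair along their whole length with Rtl1 mRNA. The arms of Mir770 and Mir337 follow as the most abundant upstream genes. Capitals mark the seed, bases 2 to 8, by which a microRNA chiefly recognises its targets.
mmu-miR-127-5p: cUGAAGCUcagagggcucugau
mmu-miR-127-3p: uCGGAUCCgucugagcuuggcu
mmu-miR-434-5p: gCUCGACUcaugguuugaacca
mmu-miR-434-3p: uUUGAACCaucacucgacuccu
mmu-miR-431-5p: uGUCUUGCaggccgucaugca
mmu-miR-431-3p: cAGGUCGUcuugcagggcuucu
mmu-miR-433-5p: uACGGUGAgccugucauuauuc
mmu-miR-433-3p: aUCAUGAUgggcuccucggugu
mmu-miR-136-5p: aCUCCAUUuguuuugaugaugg
mmu-miR-136-3p: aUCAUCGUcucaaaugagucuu
mmu-miR-770-5p: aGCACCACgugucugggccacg
mmu-miR-770-3p: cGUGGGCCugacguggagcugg
mmu-miR-337-5p: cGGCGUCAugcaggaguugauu
mmu-miR-337-3p: uCAGCUCCuauaugaugccuuu
The 20 arms carry 20 distinct seeds, so no arm shares a seed with another and they form no seed family. Among the 1738 mature microRNAs of the RefSeq table, 18 of these 20 seeds occur nowhere else. The exceptions are miR-673-5p, whose seed is also that of miR-6985-3p, and miR-540-3p, whose seed is also that of miR-6915-5p. Counts in the tables are per precursor gene, so which arm the reads came from is not given.

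Every antisense arm, 10 of 10, has exactly 1 fully complementary site in the Rtl1 mRNA (6358 nt in GENCODE M21), and 0 of the 10 upstream arms have such a site. A site for each antisense arm follows from the place of its gene opposite Rtl1, by which the set was named. All of these sites lie in the coding sequence of 1744 codons. The site of miR-127-3p begins at coding base 2495, in codon 832, and the one of miR-434-3p at coding base 818, in codon 273. They are shown on the mRNA strand as examples of the overlap, with capitals marking the bases that face the seed.
Rtl1 site of miR-127-3p: agccaagctcagacGGATCCGa
Rtl1 site of miR-434-3p: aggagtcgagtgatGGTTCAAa
Apart from Rtl1, 6 of the 20 arms have an exact match on either strand in another annotated gene, and each match lies at the same place on the chromosome. The arms of Mir770 match its own host Meg3, those of Mir337 match Mir3544 and those of Mir136 match Mir3071, both on the other strand. This search covered 141767 transcripts of GENCODE M21 and not the rest of the genome. The counts leave out multimapped reads.

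The GC content of the antisense hairpins is 40.3% to 60.4% with a median of 56.5%, against 52.6% to 70.2% with a median of 61.2% for the upstream genes. Their predicted folding energy per base is -0.50 to -0.36 kcal/mol, against -0.62 to -0.46 kcal/mol for the upstream hairpins. Mir434 holds the longest stretch repeated without overlap within any of the 10 hairpins, 13 nt in 2 copies. The first copy overlaps the 5p arm and the second the 3p arm. The hairpin of Mir434 is shown with this repeat in capitals.
Mir434 hairpin: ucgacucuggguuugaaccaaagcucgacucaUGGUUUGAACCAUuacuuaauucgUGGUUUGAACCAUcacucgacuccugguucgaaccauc
Mir431 and Mir540 each hold a repeat of 10 nt, Mir770 holds 8 nt, and the other hairpins hold 5 to 7 nt.

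All 10 genes lie on the plus strand. The gene Rtl1 runs on the minus strand from 109589193 to 109600330, and the antisense genes all lie within the coding part of its exon 2. In this order along the chromosome they are Mir431 (109590447 to 109590537), Mir433 (109591715 to 109591838), Mir127 (109592846 to 109592915), Mir434 (109594506 to 109594599) and Mir136 (109595327 to 109595388). Gaps of 727 to 1590 nt separate them, and Mir136 ends 15 nt from the first base of the Rtl1 start codon, inside the coding sequence. Of the upstream genes, Mir770 (109563692 to 109563785) lies within Meg3, which 4 annotated transcripts span there, 1 of them with Mir770 in an exon. Mir673 (109571990 to 109572080) lies just past the annotated end of Meg3. Mir337 (109585789 to 109585885), Mir540 (109586080 to 109586146) and Mir665 (109586314 to 109586407) stand close together, 194 and 167 nt apart, and 4039 nt before Mir431. None of these 4 overlaps Meg3, Rtl1 or Rian.

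**Figure D1:**
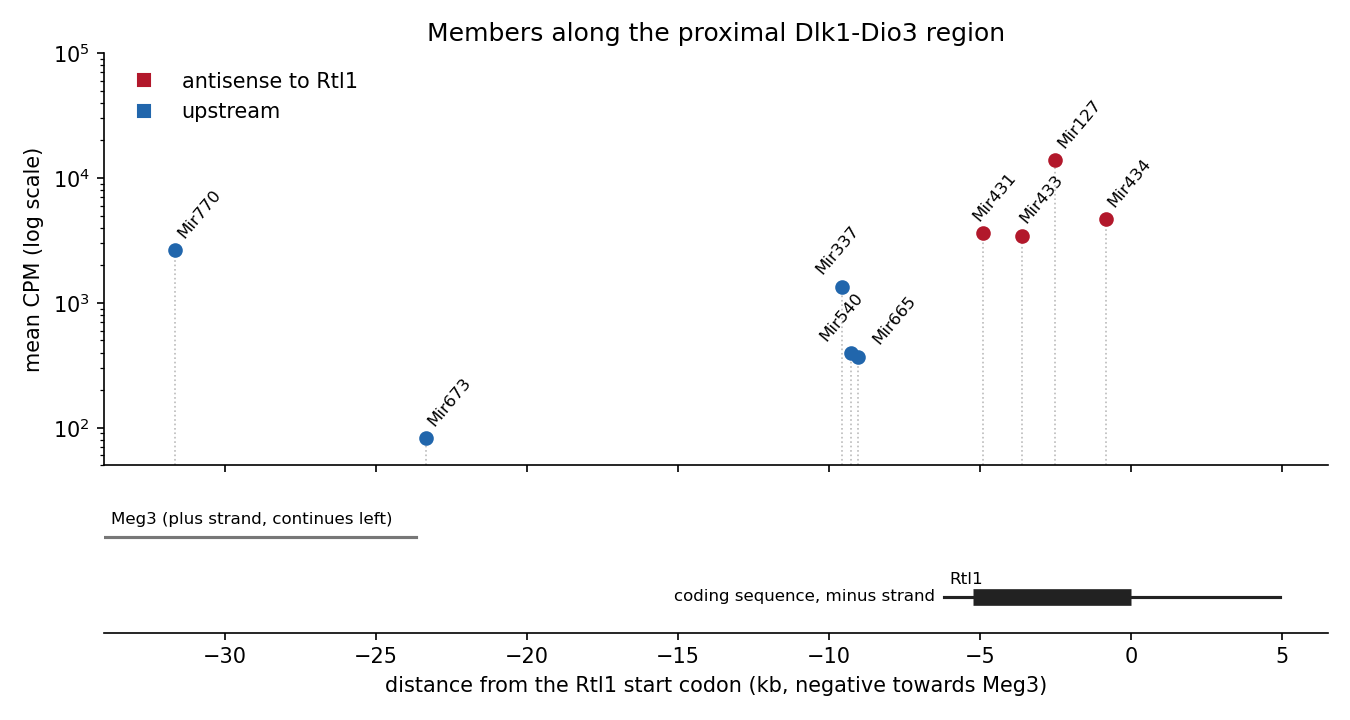
Mean CPM of each measured gene (points, log axis, mean of 2 pups) against its distance from the Rtl1 start codon in kb, with the extents of Meg3 and Rtl1 below and dotted lines as guides. The 4 antisense genes within the Rtl1 coding sequence lie above all 5 upstream genes, and Mir673 beside the end of Meg3 is the lowest.

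Same-strand counts totalled 3012320 for pup 3 and 2459757 for pup 1, and CPM are counts scaled to these totals, so that each library sums to 1000000. Each read stands for 1 short RNA and the mature products differ little in length, so CPM were not scaled by length. Adapter ligation is known to depend on sequence, which limits comparisons of level between genes. The label of the tissue was checked with marker microRNAs. The 4 listed microRNAs of the Hox clusters (Mir10a, Mir10b, Mir196b and Mir615), which mark caudal position, all reached 10 CPM in both pups. Their sum was 34278 CPM in pup 3 and 57124 CPM in pup 1. Mir196a-2, also of a Hox cluster but not on the list, was lower, at 3.32 CPM in pup 3 and 2.44 CPM in pup 1. Of 7 neuronal genes, 4 reached 10 CPM in both pups, and the 7 summed to 25537 CPM in pup 3 and 20783 CPM in pup 1. The 3 that did not are the Mir124a genes, of which Mir124a-1 had 17 counts in pup 3 and 12 in pup 1. Since the counts leave out multimapped reads, genes that share a mature sequence can be undercounted. Whether this holds for the Mir124a genes was not tested, so their low counts do not show a low level. The endothelial Mir126a was at 36931 CPM in pup 3 and 34216 CPM in pup 1. The muscle list, with Mir1a-1 at 0 counts, summed to 126 CPM in pup 3 and 100.4 CPM in pup 1. A part of multimapping in the count of Mir1a-1 was likewise not tested. The red blood cell list summed to 105 CPM in pup 3 and 151 CPM in pup 1, and its 2 members went opposite ways. With a log2 fold of 1.91, Mir144 was at 67.1 CPM in pup 3 against 17.1 CPM in pup 1. With a log2 fold of -1.88, Mir451a was at 37.5 CPM in pup 3 against 134 CPM in pup 1. Mir122, of liver, was at 45.5 CPM in pup 3 and 41.9 CPM in pup 1, and Mir223, of leukocytes, was at 229 CPM in pup 3 and 169 CPM in pup 1.

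The antisense microRNAs were abundant in newborn hindbrain. Mir127 (ENSMUSG00000070076.1) had 41482 counts (13771 CPM) in pup 3 and 34314 counts (13950.2 CPM) in pup 1. Its mean was 13860.5 ± 127 CPM (SD, n = 2, as for all values given with ±), rank 15 among the 1973 rows. Of these rows, 1274 had no count in either pup, and ranks rest on counts that leave out multimapped reads. In level Mir127 stood between Mir99b at 14576 ± 738 CPM and Mir181c at 12529 ± 261 CPM. Mir434 (ENSMUSG00000070133.1) had 14370 counts (4770.4 CPM) in pup 3 and 11358 counts (4618 CPM) in pup 1, with a mean of 4694 ± 108 CPM and rank 47. Mir431 (ENSMUSG00000070080.1) had 11431 counts (3795 CPM) in pup 3 and 8417 counts (3422 CPM) in pup 1, and averaged 3608 ± 264 CPM at rank 59. Its level was thus the higher in pup 3, while that of Mir127 was slightly the lower there. Mir433 (ENSMUSG00000070072.1) had 9906 counts (3288 CPM) in pup 3 and 8820 counts (3586 CPM) in pup 1, and averaged 3437 ± 210.2 CPM at rank 61. The 4 genes together held 25624 CPM in pup 3 and 25575 CPM in pup 1, of which Mir127 made up 53.7% in pup 3 and 54.5% in pup 1.

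Among the upstream genes the levels were spread more widely. Mir770 (ENSMUSG00000076451.1), the microRNA of Meg3, had 8022 counts (2663 CPM) in pup 3 and 6407 counts (2605 CPM) in pup 1, and averaged 2634 ± 41.2 CPM at rank 72. It held 54.4% of the upstream counts in pup 3 and 54.9% in pup 1. Mir337 (ENSMUSG00000065526.3) had 4126 counts (1369.7 CPM) in pup 3 and 3233 counts (1314 CPM) in pup 1, and averaged 1342 ± 39.1 CPM. The neighbours of Mir337 were lower than it in both pups. Mir540 (ENSMUSG00000072900.1) had 1241 counts (412 CPM) in pup 3 and 920 counts (374 CPM) in pup 1, a mean of 393 ± 26.8 CPM. Mir665 (ENSMUSG00000076313.1) had 1127 counts (374 CPM) in pup 3 and 901 counts (366 CPM) in pup 1, a mean of 370.2 ± 5.54 CPM. Mir337 thus had 3.32 times the level of Mir540 in pup 3 and 3.51 times in pup 1, although the genes lie 194 nt apart. Mir673 (ENSMUSG00000076316.1) had the fewest counts, 237 (78.7 CPM) in pup 3 and 213 (86.6 CPM) in pup 1, a mean of 82.6 ± 5.60 CPM at rank 239. Its level was 0.571% of that of Mir127 in pup 3 and 0.621% in pup 1.

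**Figure D2:**
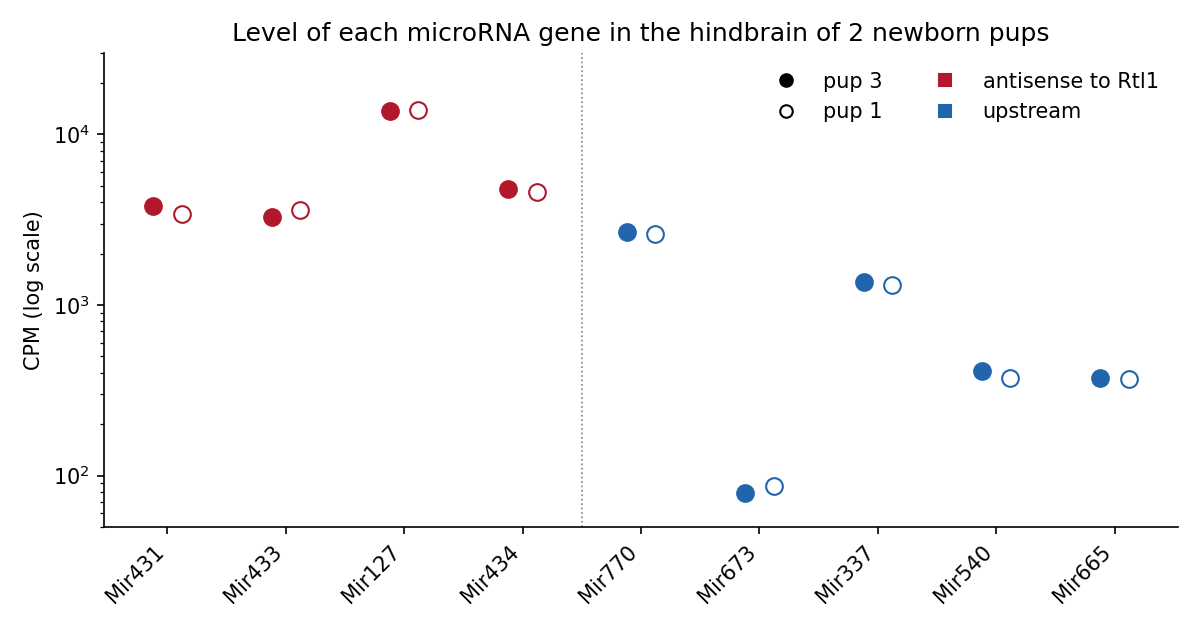
CPM of each measured gene (log axis) in pup 3 (filled) and pup 1 (open), with the antisense genes on the left and the upstream genes on the right, each in chromosome order. The points of the 2 pups nearly coincide for each gene, and the lowest antisense value (3288 CPM) is above the highest upstream value (2663 CPM).

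The antisense set exceeded the upstream set in both pups. The antisense genes ranged from 3288 to 13771 CPM in pup 3 and from 3422 to 13950.2 CPM in pup 1. The upstream genes ranged from 78.7 to 2663 CPM in pup 3 and from 86.6 to 2605 CPM in pup 1, so the sets of measured genes did not overlap in either library. The row at the place of Mir136, described further on and not counted in either set, reached 1481 CPM in pup 3 and 935 CPM in pup 1. Counted as antisense it would end that separation, since it lies below Mir770 in both pups and below Mir337 in pup 1. The medians were 4283 CPM for the antisense set and 412 CPM for the upstream set in pup 3, and 4102 CPM for the antisense set and 374 CPM for the upstream set in pup 1. On the log2(CPM + 1) scale, antisense minus upstream medians differed by 3.37 in pup 3 and 3.44 in pup 1. Genes of a set are not replicates of a condition, and several are thought to come from shared transcripts, so no test was made between the sets. Of all counts on the measured genes, the antisense set held 83.95% in pup 3 (exact Clopper-Pearson 95% interval 83.7% to 84.2%) and 84.3% in pup 1 (84.1% to 84.6%). Pup 3 minus pup 1, the shares differed by -0.394 percentage points, which is past counting error (Fisher's exact test between the 2 libraries, two-sided, p = 0.0289). That test compares libraries, with 1 on each side, and says nothing of the spread among pups. Leaving out Mir770, the gene farthest from Rtl1, the mean antisense share was 92.1%, against 84.2% ± 0.278 with it.

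The order of levels was Mir127, Mir434, Mir431, Mir433, Mir770, Mir337, Mir540, Mir665 and Mir673. Of the 8 pairs of neighbours in this order, 6 had ranges over the pups that did not overlap. The exceptions were Mir431 with Mir433 and Mir540 with Mir665. Mir431 had 1.15 times the CPM of Mir433 in pup 3 and 0.954 times in pup 1, so this pair changed order between the pups. Mir540 had the higher CPM of its pair in both pups, 1.10 times that of Mir665 in pup 3 and 1.02 times in pup 1. The widest step, from Mir665 to Mir673, was 4.76-fold in pup 3 and 4.23-fold in pup 1.

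The 2 pups had closely similar levels of these genes. The coefficient of variation over the pups was 0.915% for Mir127, the lowest, and 7.31% for Mir431, the highest of the 9. Each gene's 2 counts were compared by an exact binomial test given library totals scaled by TMM factors over all rows. The test was run on every gene that reached 10 counts in a library, with Benjamini-Hochberg adjustment and a threshold of 0.05. This test asks whether 2 libraries differ beyond counting error. It called 185 of 395 genes, or 46.8%, of which 25.6% were higher and 21.3% lower in pup 3. Of the 9 measured genes it called 3, of which 1 was higher and 2 lower in pup 3. Set against the 46.8% of all genes, that count is no result about these genes. Mir431 was higher in pup 3 (log2 fold, pup 3 over pup 1, 0.096, counting interval 0.055 to 0.14, exact binomial adjusted p = 1.12e-05). Mir433 was lower in pup 3 (log2 fold -0.18, interval -0.22 to -0.14, exact binomial adjusted p = 2.26e-16). Mir127 was lower by a smaller amount (log2 fold -0.072, interval -0.092 to -0.051, exact binomial adjusted p = 4.35e-11), and it lost its call when plain totals were used for scaling (log2 fold -0.019). Mir431 lost its call when TMM factors were taken from the genes that passed the filter alone (log2 fold 0.022).

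Mir434 did not pass (log2 fold -0.0061, interval -0.042 to 0.030), nor did any of the 5 upstream genes. Other scalings added calls: Mir434 passed as higher in pup 3 under plain totals (log2 fold 0.047) and as lower with TMM over the filtered genes (-0.081), where Mir770 also passed as lower (-0.096). Mir770 had a log2 fold of -0.021 (interval -0.069 to 0.027), Mir337 one of 0.0064 (interval -0.060 to 0.073) and Mir665 one of -0.023 (interval -0.15 to 0.11). For Mir540 it was 0.086 (interval -0.038 to 0.21) and for Mir673 -0.19 (interval -0.46 to 0.082), so that a difference of that size could not be told from counting error at the depth of Mir673. The genes with the most counts have the narrowest intervals, and the 3 called genes are, with Mir434, the 4 with the most counts. The common biological coefficient of variation of the 2 libraries was 16.6% (edgeR, 361 genes), or 0.34 as the SD of log2 folds between pups. All 9 folds lie within 1 such SD, the largest being Mir673 at 0.565 and Mir433 at 0.525 SDs. With that dispersion in edgeR's exact test, 0 of the 9 genes and 2 of 395 (0.506%) were called, and at an unadjusted p under 0.05 there were 0 of 9 and 23 of 395. The dispersion came from the same 2 libraries.

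**Figure D3:**
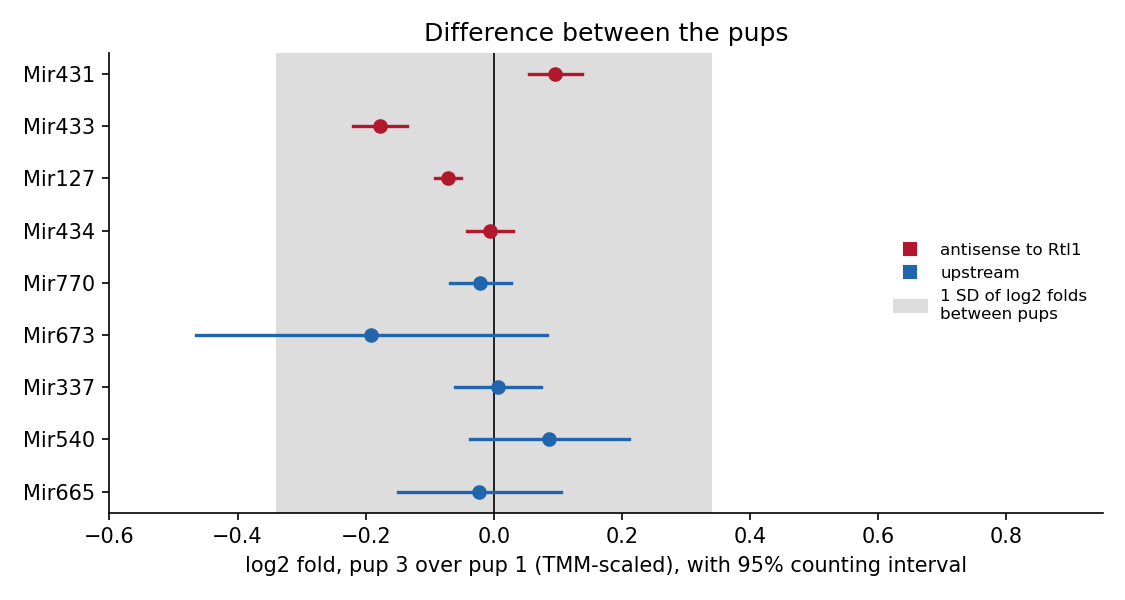
Log2 fold of pup 3 over pup 1 (points) with 95% counting intervals (lines) for the antisense genes, above, and the upstream genes, below. The grey band spans 1 SD of log2 folds between pups (0.34 on each side of 0), and all 9 points lie inside it.

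Summed over the set, the antisense genes had 77189 counts in pup 3 and 62909 in pup 1, a log2 fold of -0.050 (interval -0.065 to -0.035). The upstream genes had 14753 counts in pup 3 and 11674 in pup 1, a log2 fold of -0.0077 (interval -0.043 to 0.027). Both signs turn under plain totals, where the log2 fold is 0.0028 for the antisense sum and 0.045 for the upstream sum. The upstream sum is then past counting error upwards, and with TMM over the filtered genes it is past it downwards (-0.082). The median absolute log2 fold was 0.072 for the 9 genes, against 0.22 for all 395 genes tested and 0.19 for the 226 of them with at least 100 CPM in both pups. An absolute log2 fold no larger than the largest of the 9 genes was found in 42.0% of all genes tested and in 50.9% of those 226. The caudal and neuronal marker sums and the levels of Mir144 and Mir451a, which differed between the pups as given above, and the library totals were not tested for a part in these folds.

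At the place of Mir136 the tables have a row with the identifier ENSMUSG00000070129.1. In GENCODE M21 this identifier belongs to Mir3071, a gene on the minus strand from 109595318 to 109595397 that covers the whole of Mir136 on the other strand. The deposited listings name GENCODE M4 as the annotation, and the strand that M4 gives this row is not given in the sources used here. The mature arms of both genes come from overlapping bases read in opposite directions, a few bases out of step. Those of Mir3071 are shown for comparison with the arms of Mir136 printed above, again with the seed in capitals.
mmu-miR-3071-5p: aCUCAUUUgagacgaugaugga
mmu-miR-3071-3p: aUCAUCAAaacaaauggagucc
The row had 4461 counts (1481 CPM) in pup 3 and 2301 counts (935 CPM) in pup 1, with a mean of 1208 ± 386 CPM. Opposite-strand counts there were 1 in pup 3 and 0 in pup 1, so nearly all reads came from a single strand. Which of the 2 genes they belong to cannot be told from these tables, and the row is in none of the set values above. Its log2 fold of 0.61 (interval 0.54 to 0.68, exact binomial adjusted p = 4.43e-62) was larger than that of any of the 9 genes. That fold lay 1.80 SDs of folds between pups from 0, with 1 SD at 0.34. The p-value covers counting error alone and not the spread among pups.

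The other rows of the same stretch of chromosome were low. Mir493, between Mir673 and Mir337, had 90 counts (29.9 CPM) in pup 3 and 59 counts (23.99 CPM) in pup 1. Mir3070a, between Mir665 and Mir431, had 29 counts in pup 3 and 15 in pup 1, and its neighbour Mir3070b had 7 counts in pup 3 and 2 in pup 1. Mir432, which lies between Mir434 and Mir136 and thus within the antisense group, had 0 counts in both, where 3 counts would be 0.996 CPM in pup 3 and 1.22 CPM in pup 1. Of these, Mir493 and Mir3070a had enough counts to be tested, and neither was called. Rows of this stretch therefore ran from no count, at Mir432, to the 13860.5 CPM of Mir127. A part of multimapping in the count of Mir432 was not tested. On the opposite strand the 9 measured genes had 5 counts in pup 3 and 4 in pup 1.

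The rest of the region lies downstream, in and around Rian and Mirg. Of a list of 43 such microRNAs, 38 had a row and 34 could be tested. Its highest members were Mir487b with 49764 CPM in pup 3 and 52460 CPM in pup 1, Mir382 with 10891 CPM in pup 3 and 9143 CPM in pup 1, and Mir369 with 10005 CPM in pup 3 and 9964 CPM in pup 1. The proximal genes held 3.05% of all counts in pup 3 and 3.03% in pup 1, and the downstream list held 11.1% in pup 3 and 10.8% in pup 1. Mir127 is thus exceeded in the region by Mir487b alone among the rows measured here. The median of mean CPM was 2634 for the 9 proximal genes and 354 for the 38 downstream rows, of which 3 had no count. The counts leave out multimapped reads, and the downstream arms were not searched for matches elsewhere. A part of this in the lower median was not tested. By the same exact binomial test 13 of the 34 downstream genes were higher in pup 3, 6 were lower and 15 were not called, where of all genes tested 25.6% were higher, 21.3% lower and 46.8% called in all. Their median absolute log2 fold was 0.196, and 16 of 34 had one no larger than the largest of the 9 proximal genes. Their log2 folds ran from -0.67 to 0.56, against -0.19 to 0.096 for the proximal genes. No test was made of the difference between these lists.

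**Figure D4:**
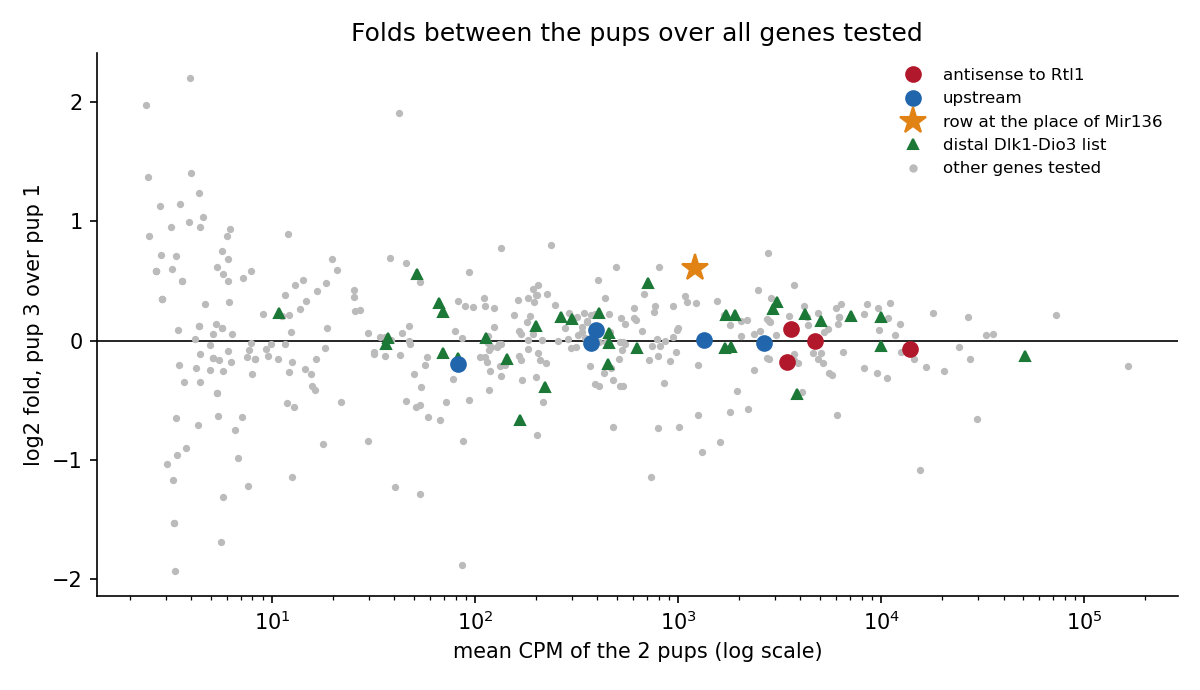
Log2 fold of pup 3 over pup 1 against mean CPM (log axis) for all 395 genes tested, with the antisense, upstream and downstream (distal) genes and the row at the place of Mir136 marked. The 9 proximal genes lie between -0.19 and 0.096, and the row at the place of Mir136 lies at 0.61.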

How the data were processed

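The authors deposited raw read counts per microRNA gene for each library, with mm10 as assembly and GENCODE M4 as annotation, per the deposited file listings. Aligner, trimming and strand setting: not given in the sources used here. The first count column equals the sum of the others for every gene, and the second was taken as same-strand reads, an inference from its layout. Rows that name no gene stayed out of the totals. Of all reads, multimapped ones were 42.0% in pup 3 and 40.2% in pup 1, unmapped ones 12.4% in pup 3 and 13.7% in pup 1, and those outside genes 3.63% in pup 3 and 3.79% in pup 1. Symbols and places came from GENCODE M21 (1894 of 1973 rows matched). Folds use a prior count of 0.5 and TMM factors over all rows (edgeR 4.0.16, R 4.3.3). Binomial and Fisher's exact tests used scipy 1.17.1. The binomial test was checked on data simulated with counting error alone, which is what the test assumes, so the check does not cover spread among pups. Intervals and floors cover counting error alone, since no source used here names molecular identifiers. The libraries were counted as 2, since their counts differed by more than sampling noise (chi-square 49286). With 1 library on each side, edgeR's quasi-likelihood test was not run. Hairpin energies came from RNAfold. Named genes were all 10 genes, their neighbours in the window, the 3 highest of the downstream list and the genes next to Mir127 in level. The rule for the 10 genes uses no counts, but these genes, and the marker and downstream lists, were picked for description with earlier results of these data known.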

Additional observations from a re-analysis of the deposited data

Results flagged for a closer look

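Among reads on the opposite strand, left out of the comparisons, Mir337 had 4 counts in pup 3 and 4 in pup 1, more than the 3 that a count of 0 allows. GENCODE M21 places Mir3544, a gene without a row of its own, on the other strand of Mir337. The row at the place of Mir136, outside the set comparisons, had 4461 counts in pup 3 and 2301 in pup 1, likewise above the 3 counts that a count of 0 allows, and its strand in the authors' annotation was not tested.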

How the results depend on the processing

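The antisense set had the higher median under each alternative tried, but with the row at the place of Mir136 counted as antisense the sets overlap. The mean antisense share of 84.2% became 84.8% with the row at the place of Mir136 counted as antisense (chosen after seeing the data) and 92.1% without Mir770. With that row the genes held 3.16% of all counts, in the either-strand column 2.95% and of all reads 1.28%, against 3.04%. The difference of medians, 3.40, became 3.23 with that row and 3.27 without the most abundant gene of each set. Without replicate 1 or 2 the antisense share ranged from 83.95% to 84.3%. With edgeR's common dispersion 2 of 395 genes and 0 of 9 were called, against 185 and 3 by counting error alone. Mir431, Mir433, Mir127, Mir540 and Mir673 kept the sign of their folds under all scalings tried, and the other 4 genes and both sums each turned under at least 1. Under plain totals the summed log2 folds were 0.0028 (antisense) and 0.045 (upstream, past counting error), that of Mir434 was 0.047 (called), of Mir770 0.032 and of Mir665 0.030. Mir337 had -0.015 under DESeq2 factors and -0.068 with TMM over filtered genes (added after seeing the data), where the upstream sum was -0.082 and past counting error and 4 of the 9 genes were called. No paired analysis was possible because there is 1 group. Counts per precursor limit the data to genes, not arms.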
